A study of Mus musculus with 2 samples.

Results

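The condensin subunits are 8 mouse genes, Smc2, Smc4, Ncapd2, Ncapg, Ncaph, Ncapd3, Ncapg2 and Ncaph2, taken by name; all 8 were found among the 43346 Ensembl gene rows and read in 2 libraries. Condensin is the ring-shaped ATPase that compacts chromosomes for mitosis. In vertebrates it occurs as a pair of complexes that share SMC2 and SMC4, the ATPase arms of the ring. Each complex adds a kleisin that closes the ring and a couple of HEAT-repeat subunits that bind DNA: NCAPH, NCAPD2 and NCAPG in condensin I, and NCAPH2, NCAPD3 and NCAPG2 in condensin II. Condensin II is nuclear throughout the cell cycle and starts compaction in prophase, while condensin I reaches the chromosomes once the nuclear envelope has broken down. Mouse NCAPG2 is also known as MTB, a binding partner of the erythroid factor SCL (TAL1) that was linked to erythroid differentiation, and nuclear condensation is a hallmark of maturing erythroblasts.

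The libraries held total RNA from G1E-ER4, an immortalised line of mouse erythroid cells without a working Gata1 gene of their own, in which the factor was restored in a form switched on by estradiol. Both cultures had been given 17beta-estradiol at 10 nM for 24 h and are labelled as biological replicates 1 and 2. The labels give the strain as C57BL/6J and the donor as male, postnatal and of age 0 day. Both come from 1 cell line, and no untreated culture was analysed here, so the data give levels, ratios within a library and differences between the replicates, and no effect of estradiol.

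Replicate 1 was the deeper library, with a total of 62081014 expected counts, and replicate 2 had 41051163. All 12 erythroid markers checked, led by the globin genes Hbb-bs, Hba-a2 and Hba-a1 and the carbonic anhydrase gene Car2, stood at 1 TPM or more in both libraries. The 12 include Gata1, named outside the rule for named genes, whose reads could come from the restored form and were not told apart. All 27 markers of myeloid, lymphoid, mast, megakaryocyte, stromal or endothelial cells stayed under 1 TPM. Of these, 1 mast cell marker averaged 100 counts or more. The libraries were not copies of each other: the chi-square of their counts over 12223 genes was 75.8 per degree of freedom. Levels are given as TPM, a share of the library divided by transcript length, so those of different genes can be set side by side. Nuclear protein-coding genes held 14.1% of TPM in replicate 1 and 14.4% in replicate 2. On a scale of these genes alone, 1 TPM would be 7.09 TPM in replicate 1 and 6.95 TPM in replicate 2. Errors are SD over the 2 libraries.

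Every condensin subunit was expressed. The 8 members reached 1 TPM in both libraries, which 36.3% of all protein-coding genes did, and their median was 10.7 TPM (7.40 TPM in replicate 1 and 13.9 TPM in replicate 2), beside a median of 4.60 TPM over the 9569 protein-coding genes whose mean was 0.1 TPM or higher. Their levels spanned a wide range, with Smc4 highest in both libraries and Ncapg2, Ncapd3 and Ncaph at the low end. The complexes did not follow a common order: the D2 and G subunits of condensin I lay above their condensin II counterparts, and the kleisin of condensin I lay below that of condensin II.

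Start regions are shown only for the members whose printed stretch holds letters known from promoters of cell cycle genes. The words TTTGAA or else TTCGAA stood for the cell cycle genes homology region (CHR), which the MuvB complex binds in G2/M genes, and CCAAT for the box of that name. The E2F site was searched as the word TTTCCCGC, the word TTTGGCGC, the word TTTCGCGC and the word TTTGCCGC, and the GATA site as AGATAA or else TGATAA. The search covered both strands from 250 bases before to 50 bases after the RefSeq start (GRCm38.p6), and no word holds a word of another motif. The sequences below run 5′ to 3′ on the gene's strand and stop before the first annotated exon base, and where a neighbouring gene has an exon in the window they begin after it. Capitals mark the matches.
Smc2, chr4:52438971-52439220, plus strand: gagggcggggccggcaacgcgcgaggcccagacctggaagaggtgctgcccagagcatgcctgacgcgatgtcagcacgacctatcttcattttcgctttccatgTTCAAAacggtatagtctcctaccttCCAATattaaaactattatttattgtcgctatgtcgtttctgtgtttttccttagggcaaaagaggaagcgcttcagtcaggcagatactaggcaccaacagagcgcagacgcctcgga
Ncapd2, chr6:125191702-125191800, minus strand: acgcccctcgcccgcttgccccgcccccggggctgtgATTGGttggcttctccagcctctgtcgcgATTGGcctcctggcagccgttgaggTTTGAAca
Ncapg, chr5:45669709-45669918, plus strand: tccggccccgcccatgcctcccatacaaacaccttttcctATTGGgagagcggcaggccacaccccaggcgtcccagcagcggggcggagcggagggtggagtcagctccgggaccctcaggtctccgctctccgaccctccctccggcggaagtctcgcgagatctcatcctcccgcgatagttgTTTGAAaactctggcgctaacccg
Ncaph2, chr15:89355660-89355718, plus strand: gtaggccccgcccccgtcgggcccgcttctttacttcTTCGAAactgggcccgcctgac

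Of the 7 members with a sequence, 5 held a CHR word in the whole window (Smc2, Ncapd2, Ncapg, Ncapg2 and Ncaph2), beside 19.4% of 27025 promoters of that length. The CHR word of Ncaph2 was TTCGAA, and those of the other 4 members were TTTGAA on one strand or the other. That of Ncapg2 lay past an annotated start and is not shown. A CCAAT box was found in Smc2, Ncapd2 and Ncapg, 3 of 7 members, beside 37.9% of all promoters. An E2F word was found in Ncapd2, Ncapg and Ncapg2, 3 of 7, beside 2.32% of all promoters, and in none of the stretches printed above, since these matches lay past an annotated start or in the exon of a neighbouring gene. No member held a GATA word, which 19.0% of all promoters did. Ncaph and Ncapd3 held none of the words searched, and their stretches are not shown. These are matches of letters and not measured sites.

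Among the shared ATPase arms, Smc4 (ENSMUSG00000034349.10; GRCm38 chromosome 3, 69004738 to 69034623, plus strand) stood at 42.7 TPM in replicate 1 and 60.6 TPM in replicate 2, from 21475 and 21935 counts. Smc2 (ENSMUSG00000028312.15; chromosome 4, 52439243 to 52488260, plus strand) stood at 9.49 and 16.4 TPM, from 9526 and 11902 counts. Smc4 was thus the higher of the obligate partners in both libraries, and the log2 ratio of Smc2 over Smc4 was -2.03 ± 0.20 (n = 2), with -2.17 in replicate 1 and -1.89 in replicate 2. By mean TPM, Smc4 (51.6 ± 12.7 TPM) exceeded 95.05% of the 9569 genes and Smc2 (12.9 ± 4.88 TPM) exceeded 76.9%.

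In condensin I, Ncapd2, which codes for a HEAT-repeat subunit (ENSMUSG00000038252.9; chromosome 6, 125168007 to 125191701, minus strand), was at 17.1 and 28.9 TPM in replicates 1 and 2. Ncapg, which codes for the other HEAT-repeat subunit (ENSMUSG00000015880.9; chromosome 5, 45669919 to 45700546, plus strand), was at 5.31 and 11.5 TPM. Ncaph, the kleisin gene (ENSMUSG00000034906.11; chromosome 2, 127103809 to 127133954, minus strand), was at 2.5 and 5.5 TPM, from 1244 and 1760 counts. On TPM of all transcripts the condensin I subunits kept the order Ncapd2, Ncapg, Ncaph in both libraries, and each was lower in replicate 1. On transcripts annotated as coding, Ncapd2 and Ncapg stood at 5.27 and 4.53 TPM in replicate 1. In replicate 2 they stood at 8.96 and 9.5 TPM, so their order changed on that measure. Ncapd2 exceeded 87.4%, Ncapg 66.6% and Ncaph 46.1% of the 9569 genes by mean TPM.

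In condensin II the kleisin led. Ncaph2 (ENSMUSG00000008690.11; chromosome 15, 89355719 to 89372826, plus strand) was at 20.5 and 22.7 TPM in replicates 1 and 2, from 10552 and 8023 counts. Ncapg2, the gene of MTB (ENSMUSG00000042029.6; chromosome 12, 116405402 to 116463731, plus strand), was at 2.05 and 4.22 TPM. Ncapd3, which codes for a HEAT-repeat subunit (ENSMUSG00000035024.11; chromosome 9, 27030175 to 27095315, plus strand), was at 2.53 and 3.40 TPM. Ncaph2 was far above its partners in both libraries, whereas Ncapg2 was the lowest of the 3 in replicate 1 and Ncapd3 in replicate 2. Ncaph2 exceeded 86.3%, Ncapg2 39.7% and Ncapd3 38.3% of the 9569 genes.

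**Figure D1:**
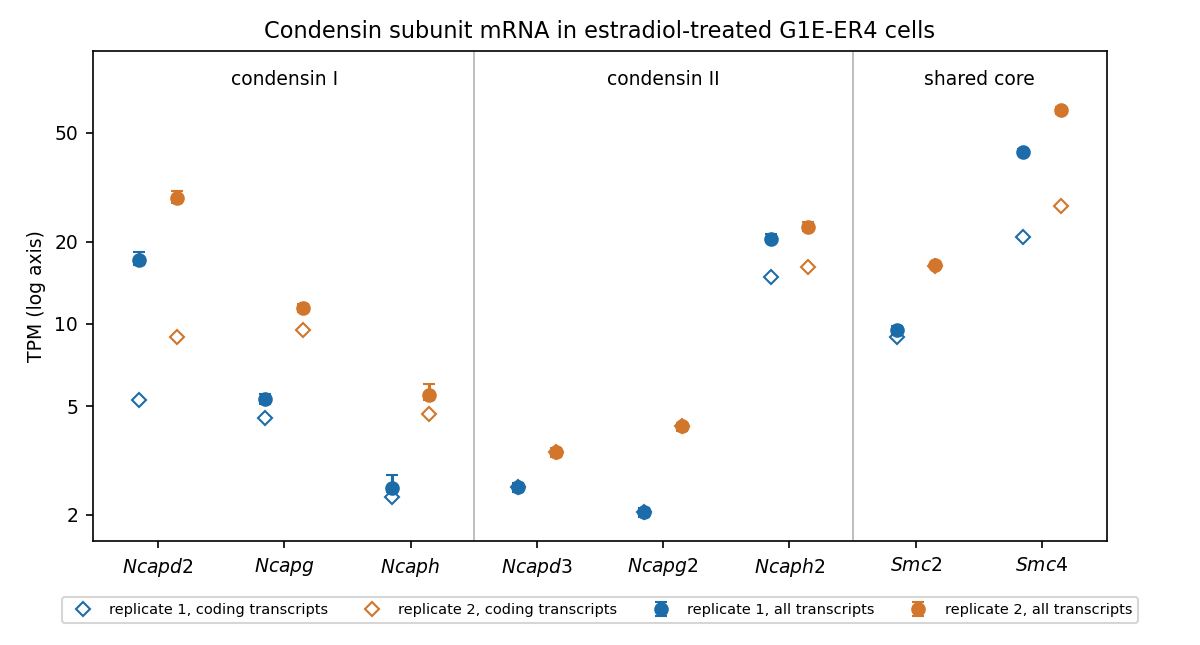
TPM (log axis) of the 8 condensin subunits in each library. Filled circles are the gene's TPM with the deposited credible bounds, and open diamonds the TPM summed over transcripts annotated as coding; Smc4 is highest at 42.7 and 60.6 TPM, and Ncapd2 and Smc4 show the widest gap between circle and diamond.

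Ordered by mean TPM of all transcripts the members ran Smc4, Ncapd2, Ncaph2, Smc2, Ncapg, Ncaph, Ncapg2 and Ncapd3. On coding transcripts Ncapd2 averaged 7.1 TPM and fell below Ncaph2 (15.5 TPM) and Smc2 (12.6 TPM). The rest of this paragraph uses all transcripts. The deposited credible bounds, whose level is not given in the sources used here, overlapped within a library in 1 of the 28 pairs of members: in replicate 1 those of Ncaph ran from 2.42 to 2.80 TPM and those of Ncapd3 from 2.42 to 2.61 TPM. Between libraries the order was less firm, and 3 pairs changed places. These were Ncapd2 (23.0 ± 8.29 TPM) with Ncaph2 (21.6 ± 1.52 TPM), Ncapg2 (3.14 ± 1.53 TPM) with Ncapd3 (2.96 ± 0.615 TPM), and Ncaph (4.00 ± 2.12 TPM) with Ncapd3. Smc2 and Ncapg, and Ncaph and Ncapg2, kept their order, but their means differed by less than the larger SD of the pair.

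Each subunit of condensin I has a counterpart in condensin II, so the complexes were compared position by position within each library. The ratios here use TPM of all transcripts, and Ncapd3 and Ncapg2, unlike Ncapd2 and Ncapg, have only transcripts annotated as coding. At the D position Ncapd2 was 6.77-fold Ncapd3 in replicate 1 and 8.49-fold in replicate 2, a log2 ratio of 2.92 ± 0.23 (n = 2). At the G position Ncapg was 2.59-fold and 2.72-fold Ncapg2 (log2 1.41 ± 0.05). At the kleisin position the direction was the opposite, with Ncaph at 0.122-fold and 0.243-fold Ncaph2 (log2 -2.54 ± 0.70). All 3 ratios had 1 sign in both libraries and a mean larger than its SD. With 2 libraries the smallest p that an exact two-sided sign-flip test allows is 0.5, so no p is given for the ratios.

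Summed over the position-specific subunits, condensin I had 24.9 TPM in replicate 1 and 45.8 TPM in replicate 2, and condensin II had 25.1 and 30.3 TPM. The log2 ratio of the sums was -0.01 in replicate 1 and 0.60 in replicate 2 (mean 0.29 ± 0.43), which did not exceed its spread. On TPM of coding transcripts the same ratio was -0.68 and -0.04, so which complex had more mRNA in total was not settled by these libraries. The summed kleisins, Ncaph plus Ncaph2, were 2.42-fold Smc2 in replicate 1 and 1.72-fold in replicate 2 on TPM. On TPM of coding transcripts they were 1.93-fold and 1.28-fold, and on expected counts not divided by length 1.24-fold and 0.822-fold, so this ratio depended on the measure. Ncaph made up 10.9% and 19.5% of the kleisin sum on TPM.

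**Figure D2:**
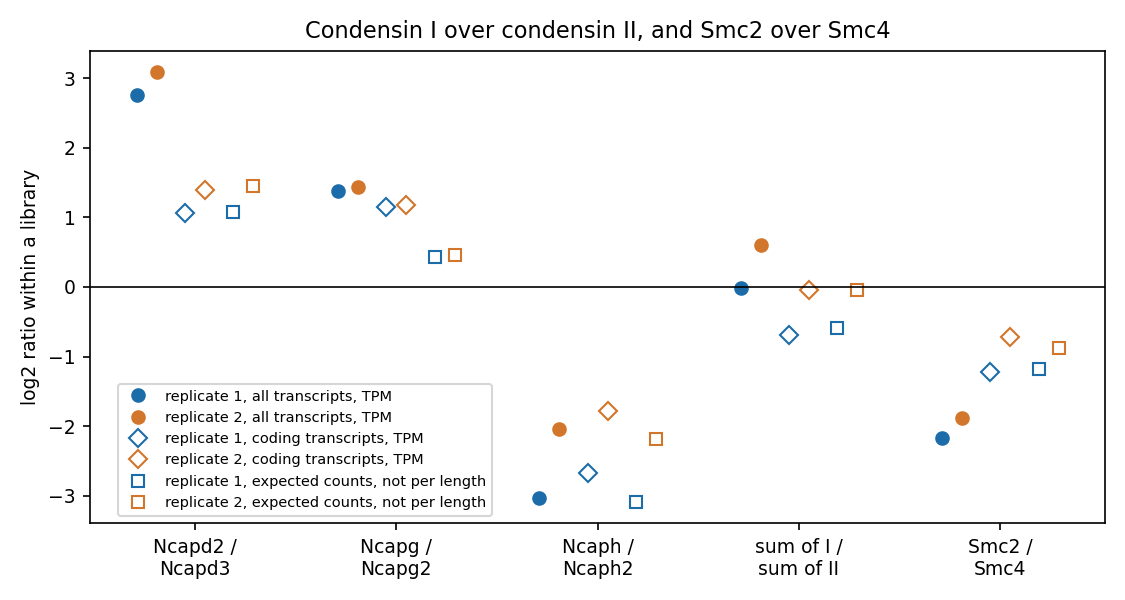
Log2 ratios within each library of condensin I subunits over their condensin II counterparts, of the sums, and of Smc2 over Smc4 (blue, replicate 1; orange, replicate 2). Filled circles use TPM of all transcripts, diamonds TPM of coding transcripts and squares expected counts not divided by length; the kleisin ratio lies between -3.08 and -1.78 in every measure drawn, while the D ratio drops to 1.06 and 1.40 with coding transcripts.

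The size of the D and Smc ratios depended on which transcripts were counted, with short transcripts annotated as retained introns holding much TPM on few counts. Transcripts not annotated as coding held 69.1 ± 0.214% of Ncapd2 TPM but 19.6 ± 0.636% of its counts. The coding form Ncapd2-201 had 4624 and 5623 counts in replicates 1 and 2, while Ncapd2-203, a retained-intron form of 682 bases, held 36.3% and 30.6% of the gene's TPM on 611 and 581 counts. An exon of Ncapd2-203 shares 237 bases with Scarna10, a small Cajal body RNA gene on the same strand, which stood at 738 and 805 TPM. The same exon shares 235 bases with Gm28967, annotated as sense intronic on the same strand, at 5.18 TPM in replicate 1 and 25.8 TPM in replicate 2. The posterior SD of the count was 17.6 and 14.5 for Ncapd2 and at most 0.16 for the other 7 members. The part of Scarna10 or Gm28967 reads in Ncapd2 TPM was not tested. With coding transcripts only, Ncapd2 stood at 5.27 and 8.96 TPM and was 2.08-fold and 2.64-fold Ncapd3 (log2 1.23 ± 0.24).

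Smc4 was divided in a similar way, with 53.5 ± 2.97% of its TPM and 29.7 ± 6.83% of its counts on transcripts not annotated as coding. Holding 50% or more of TPM on such transcripts in both libraries was seen in these 2 of the 6 members with such a transcript and in 13.6% of 4988 protein-coding genes that have one and average 1 TPM or more. The leading coding form Smc4-202 held 45.7% and 41.3% of TPM, and the retained-intron forms Smc4-204 and Smc4-209 held 19.4% and 17.2%, and 12.0% and 11.6%. The form Smc4-207, annotated for nonsense-mediated decay and 4057 bases long, took 17.7% of the gene's counts in replicate 1 and 28.5% in replicate 2. On coding transcripts Smc2 over Smc4 was -0.97 ± 0.35 on the log2 scale.

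The other members were mostly coding. In Ncaph2 the coding forms held 71.9 ± 1.09% of TPM, led by Ncaph2-202 at 46.6% and 50.8% and Ncaph2-203 at 21.5% and 17.8%. Ncapg-201 held 85.5% and 82.8% of Ncapg, and Ncaph-201 held 93.2% and 85.2% of Ncaph. Smc2 was split between 2 coding forms, Smc2-201 at 62.0 ± 0.714% and Smc2-202 at 34.4 ± 2.58%. Ncapd3-201 and Ncapg2-201 held all of the reads of their genes. Ncapd3 had 2 listed transcripts and Ncapg2 had 1, all annotated as coding, so neither gene could hold TPM on another class. The median share of TPM on transcripts not annotated as coding was 17.6% over the 4988 genes.

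**Figure D3:**
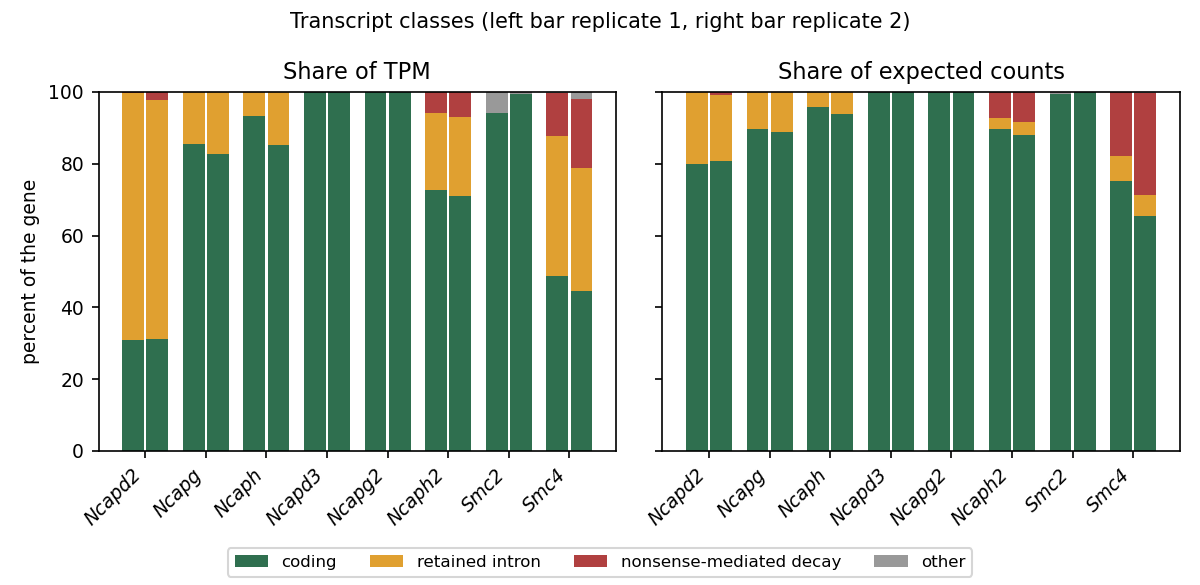
Percent of each gene's TPM (left panel) and expected counts (right panel) held by transcripts annotated as coding, retained intron, nonsense-mediated decay or other, with replicate 1 as the left bar and replicate 2 as the right bar of each gene. Coding transcripts hold 30.8% and 31.1% of Ncapd2 TPM but 79.9% and 80.8% of its counts.

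Neighbouring genes share bases with a few members. The exons of Ncapg share 944 bases with Lcorl on the opposite strand, which was at 8.53 and 7.24 TPM, and those of Ncaph2 share 829 bases with Sco2 (4.99 and 4.55 TPM) and 535 with Tymp (0.05 TPM in each library). Whether strand was used in the counting is not given in the sources used here, and without it reads of these stretches could not be told apart. The posterior SD of the count was 0 in both libraries for Ncapg. For Ncaph2 it was 0.16 in replicate 1 and 0.06 in replicate 2. The part of neighbouring reads in these counts was not tested. Smc4 is the host gene of the microRNA genes Mir15b and Mir16-2, whose gene rows were listed at 0 counts in both libraries. With a labelled size range of 200 to 1000, these counts do not show whether the microRNAs were made.

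Condensin subunits were lower in replicate 1 than in replicate 2. In these bulk samples fewer cells of a type and less RNA per cell cannot be told apart. On expected counts per library scaled with TMM factors (CPM), Ncapg had 58.9 CPM in replicate 1 and 128 CPM in replicate 2, a log2 ratio of replicate 1 over replicate 2 of -1.12. Ncaph had 20.2 and 42.6 CPM (log2 -1.08), and Ncapd2 had 94.1 and 168 CPM (log2 -0.84). All 3 condensin I subunits were thus past 1.5-fold. Among condensin II subunits, Ncapg2 had 43.7 and 92.7 CPM (log2 -1.09), which is inside the range of condensin I. Ncapd3 had 44.5 and 61.8 CPM (log2 -0.47) and Ncaph2 had 171 and 194 CPM (log2 -0.18), and neither reached 1.5-fold. In the core, Smc2 had 155 and 288 CPM (log2 -0.90) and Smc4 had 348 and 531 CPM (log2 -0.61).

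In all, 6 of 8 members were higher in replicate 2 by 1.5-fold or more and none in replicate 1. Over the 8908 protein-coding genes that averaged 100 counts or more, 4.94% were higher in replicate 2 by that fold and 1.67% in replicate 1. At 2-fold the members were 3 (Ncapg, Ncaph and Ncapg2), beside 1.54% of all genes. The members' median log2 ratio was -0.87, beside a median of -0.005 over the 8908 genes, whose middle 90% ran from -0.58 to 0.39. Smc4 was not past 1.5-fold on TPM (1.42-fold higher in replicate 2) or on counts of coding transcripts alone (log2 -0.41). With 1 library on each side these ratios carry no test, and they compare the libraries, not conditions.

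Many genes that act with condensin in mitosis were likewise lower in replicate 1. Of 15 condensin regulators and mitotic chromosome partners, 9 were higher in replicate 2 by 1.5-fold or more and none in replicate 1, with a median log2 ratio of -0.78. Top2a, the topoisomerase of mitotic chromosomes, was at 48.9 TPM in replicate 1 and 83.2 TPM in replicate 2 (log2 CPM ratio -0.82), and Ccnb1, the mitotic cyclin, at 38.7 and 61.7 TPM (-0.67). Top2b, the form not tied to division, was at 52.6 and 50.1 TPM (-0.07), and Cdca8, of the chromosomal passenger complex, at 30.8 and 34.5 TPM (-0.35). Mcph1, an inhibitor of condensin II, was at 2.89 and 2.96 TPM (-0.11); it falls outside the rule for named genes and was chosen after its values were seen.

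Among 19 G2/M genes, 17 were higher in replicate 2 by that fold (median log2 ratio -0.89), and among 19 S phase genes 16 were (median -0.96). Of the 4 highest G2/M genes, Ccna2, an S phase and mitotic cyclin, had a log2 ratio of -0.83 and Prc1, of the spindle midzone, one of -0.92. The other two, Ube2c, which acts with the anaphase-promoting complex, at -0.51 and Tpx2, a spindle assembly factor, at -0.44, were the ones that did not reach 1.5-fold. Of the 4 highest S phase genes, Rrm1 and Rrm2, of ribonucleotide reductase, were at -0.87 and -1.39, and Fen1, the flap endonuclease, at -0.69. Slbp, which binds the stem-loop of histone mRNA, was the highest by mean TPM and did not reach 1.5-fold, at -0.20. Ung, a uracil glycosylase, chosen after its values were seen, lay on the other side at 0.48. Of the other SMC complexes, none of the 6 measured cohesin genes (of 9 listed) and none of the 6 measured SMC5/6 genes (of 7 listed) reached 1.5-fold in either direction, with a median of -0.13 for cohesin and -0.07 for SMC5/6. That condensin differs from them was not tested. Of the 12 cohesin regulators, 6 were higher in replicate 2 by 1.5-fold or more, among them Esco2, the acetyltransferase of S phase (log2 -0.89), and Pttg1, the separase inhibitor (log2 -0.70). Wapl, the release factor of cohesin, was at 58.3 and 59.0 TPM (log2 -0.05), and Pds5a, a partner of Wapl, at 15.5 and 16.6 TPM (log2 -0.14). On TPM of all transcripts, the SMC genes of cohesin, Smc1a at 22.7 ± 2.35 TPM and Smc3 at 22.3 ± 2.23 TPM, were close to each other. Smc2 and Smc4 were not, but on coding transcripts their gap narrowed, to 0.430-fold in replicate 1 and 0.605-fold in replicate 2. Coding transcripts of Smc1a and Smc3 were not compared. Rec8, the kleisin best known from meiotic cohesin, was at 29.5 and 19.99 TPM (log2 CPM ratio 0.49), and Stag2 at 49.0 and 60.5 TPM (-0.07). In the SMC5/6 complex, Nsmce4a was at 20.01 and 23.7 TPM and Smc5 at 9.41 and 9.50 TPM. Nsmce1 was at 8.47 and 10.4 TPM and Nsmce2 at 6.31 and 6.17 TPM.

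**Figure D4:**
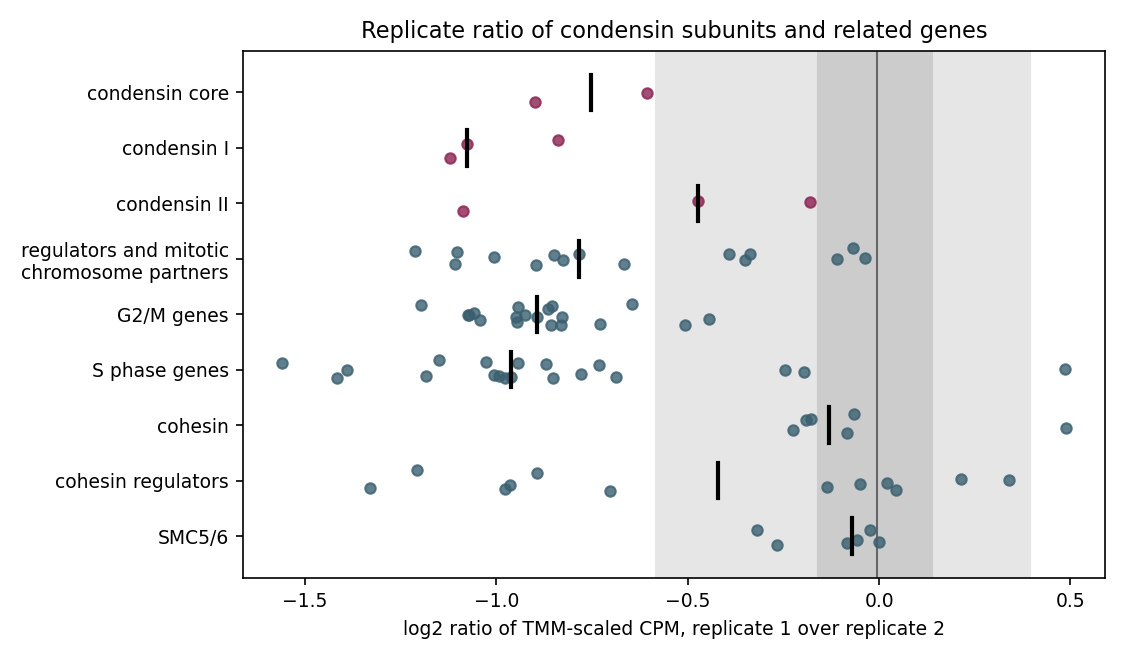
Log2 ratio of TMM-scaled CPM, replicate 1 over replicate 2, for each gene that averaged 100 counts or more (points; condensin in dark red) and the list median (black bars). The grey bands hold the middle 90% and middle 50% of 8908 protein-coding genes; the condensin I median is -1.08, the condensin II median -0.47 and the cohesin median -0.13.

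The libraries also differed in depth, 62081014 against 41051163 counts, and in a trace of myeloid reads. All 8 myeloid markers were under 1 TPM in both libraries, but their summed level was 0.150 TPM in replicate 1 and 1.57 TPM in replicate 2. S100a8 had 1 and 15 counts, S100a9 1 and 16, Mpo 16 and 62, and Lyz2 0 and 17. Csf1r, with 38 and 12 counts and named after its values were seen, was the 1 myeloid marker with a lower TPM in replicate 2. The 4 mast cell markers summed to 0.60 and 0.84 TPM and the 5 megakaryocyte markers to 0.62 and 1.00 TPM. The 6 lymphoid markers, 4 of them at 0 in both libraries, summed to at most 0.01 TPM, and the 4 stromal or endothelial markers, 3 of them at 0, to at most 0.04 TPM. The part of these differences in the replicate ratios was not tested. The erythroid markers had a median log2 ratio of -0.20, and 1 of 12, Hbb-bs at -0.90, was past 1.5-fold.

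The nuclear protein-coding genes whose TPM in the 2 libraries lay nearest to the geometric mean of the members, 7.48 and 12.5 TPM in replicates 1 and 2, were Gm15446 (7.52 and 12.8 TPM), Dut (7.62 and 12.7 TPM) and Shmt2 (7.23 and 12.3 TPM). The Euclidean distances on the log2 scale were 0.033, 0.036 and 0.052. With 2 libraries this likeness rests on 2 values a gene.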

How the data were processed

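Total RNA was measured in 2 libraries of 1 group, built with ScriptSeq reagents on 100 ng of rRNA-depleted input (labelled size range 200 to 1000); replicate numbers are the labels' own, which call them biological. The authors deposited gene and transcript tables holding expected counts (estimated reads, not all whole), TPM, posterior mean TPM, FPKM and the percent of gene TPM per transcript, named in the file headers. Credible bounds of TPM, deposited in those tables too, are a signal that is never negative. Deposited text lists name mm10 and GENCODE M4. Which program and aligner made the values is not given in the sources used here.

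GENCODE M21 (GRCm38, the mm10 assembly) supplied symbols, transcript classes and coordinates by unversioned identifier, for 42462 of 43346 Ensembl rows. Rows with numeric identifiers (26248, at most 2.9e-05% of a library's counts) were left out. RefSeq promoters (GRCm38.p6) matched 7 of 8 members, all but Smc4.

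Ratios between genes are log2 ratios of TPM within a library. Replicate ratios use rounded expected counts with TMM scaling (edgeR 4.0.16, prior count 0.5, R 4.3.3). The scaling was tested on simulated data with 200 changed genes, whose changes were larger than any replicate ratio of the members. That test does not cover changes of the members' size. Size factors of DESeq2 1.42.0, other filters, a pseudocount, other units and coding transcripts alone were alternatives. No test between groups exists in this design. Named are the members, the 4 genes of highest mean TPM in each related list and in the erythroid and myeloid marker lists, the 3 nearest genes by level and leading transcripts; the other marker lists are given as sums, and genes named outside this rule are marked in the text, overlapping genes aside. Members and lists were chosen with earlier results of these data known. Counts carry no molecular identifiers.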

Additional observations from a re-analysis of the deposited data

How the results depend on the processing

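No paired analysis was possible because there is 1 group. The kleisin ratio moved by less than its SD under every alternative tried, but that SD, 0.70, was the largest of the ratios. It was -2.54 on TPM and -2.23 with coding transcripts only. Leaving out either of 2 libraries always moves a mean by less than the SD, so that step could not show otherwise. Without replicate 1 or without replicate 2 the log2 ratios ran from 2.76 to 3.08 for Ncapd2 over Ncapd3, from 1.37 to 1.44 for Ncapg over Ncapg2, from -3.04 to -2.04 for Ncaph over Ncaph2, from -2.17 to -1.89 for Smc2 over Smc4, and from -0.01 to 0.60 for the sums. On expected counts not divided by length they were 1.26, 0.45 and -1.03 for the D, G and Smc pairs, and -0.31 for the sums. With coding transcripts only they were 1.23, 1.16 and -0.97, and -0.36 for the sums. A pseudocount of 1 TPM gave 2.56 for the D pair and 1.15 for the G pair. FPKM differs from TPM by a constant factor within a library, so its ratios had to be the same apart from rounding. Posterior mean TPM moved no ratio by more than its SD. The ratio of the sums, which did not exceed its spread on TPM, was the only one whose mean had another sign under an alternative. The members past 1.5-fold between replicates numbered 6 under DESeq2 size factors, library totals and other count filters, 5 on TPM, 5 on counts of coding transcripts, a setting chosen after seeing the data, and 3 at 2-fold. All 48 values of the members' replicate ratios under the alternatives were negative, from -1.14 to -0.14. They restate the same 2 libraries and are not separate checks. DESeq2 size factors, library totals and the count filters only shift all genes by a common small amount. At a threshold of 5 TPM, 5 members passed in both libraries. Replicate ratios need both libraries, so neither could be left out. With 2 libraries, differences of the size of the replicate spread cannot be told from it.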
